A study of Mus musculus with 60 samples.

Results

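A set of 10 genes of terminal glycan synthesis was followed through the mouse gut epithelium: the fucosyltransferases Fut2, Fut4, Fut8 and Fut9, the N-acetylgalactosaminyltransferases B4galnt1, B4galnt2 and B4galnt3, the chain-building enzymes B3galt5 and B3gnt7, and the sialyltransferase St6gal1. They are 10 of the 55357 genes in the deposited count table, found there by gene name. They were chosen from earlier results of these same data, and which comparison they were chosen on is not recorded. Their levels, differences and p-values therefore describe these libraries, make no allowance for that choice and are not independent support for any pattern among them.

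The libraries are sequenced polyA RNA of gut epithelium from mice, 8 weeks of age, with an Lgr5-2A-eGFP allele, in which the Lgr5 locus, a marker of crypt base stem cells, drives eGFP. All 15 groups share this allele and age and received no treatment that the labels name. The 5 gut parts were the small intestine, cut into proximal, middle and distal parts, and the colon, cut into proximal and distal parts. By eGFP brightness the cells of each part were sorted as GFP-high, as GFP-intermediate or as GFP-negative, with 4 libraries in each of the 15 groups. The labels do not say that the 4 libraries of a group came from separate animals, so p-values measure the spread between libraries, which may be partly technical.

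The libraries held 55411864 to 113917959 counts each. Lgr5 followed the sort in every gut part, with group means of 203 to 544 CPM (counts scaled to library size) in GFP-high cells, 74.1 to 143 CPM in GFP-intermediate cells and 2.67 to 12.2 CPM in GFP-negative cells. The 8 genes listed for epithelial identity were detected in all 15 groups. The libraries numbered 1 stood apart in sex-linked genes: those of the small intestine held Xist, the X-inactivation RNA, and no count of the Y-linked Ddx3y, those of the colon held both, and those numbered 2 to 4 held Ddx3y with at most 1.94 CPM of Xist. GFP-negative cells also held leukocyte RNA. The 18 leukocyte genes listed, all detected in each GFP-negative group, summed to 133 to 4099 CPM there, against 6.7 to 51.3 CPM in GFP-high cells.

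Glycans of secreted mucins and of the cell surface are built stepwise in the Golgi, where each transferase adds a sugar from a nucleotide donor to a particular acceptor. Chain-building enzymes lay down alternating galactose and N-acetylglucosamine, and terminal enzymes then cap the chain with fucose, N-acetylgalactosamine or sialic acid. In the gut these caps form the Lewis, H and Sda structures that bacteria bind or feed on. In sorted bulk samples, fewer cells of an expressing type and less RNA per cell cannot be told apart.

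The fucosyltransferase genes do different jobs. Fut2 makes the H structure by adding fucose to terminal galactose, Fut4 and Fut9 add fucose to N-acetylglucosamine near the chain end and so build Lewis x, and Fut8 adds the core fucose of N-glycans. On the GRCm38 build, in RefSeq coordinates, Fut2 lies on chromosome 7 at 45648591 to 45666394, Fut4 on chromosome 9 at 14748459 to 14752122, Fut8 on chromosome 12 at 77237430 to 77475998 and Fut9 on chromosome 4 at 25609333 to 25800003. The 3 N-acetylgalactosaminyltransferases cap different acceptors: B4galnt1 acts on gangliosides, B4galnt2 makes the Sda structure on sialylated galactose and B4galnt3 makes the LacdiNAc unit on N-acetylglucosamine. B4galnt1 lies on chromosome 10 at 127165156 to 127172340, B4galnt2 on chromosome 11 at 95863559 to 95914960 and B4galnt3 on chromosome 6 at 120200753 to 120294917. B3galt5 adds the galactose of type I chains, B3gnt7 extends lactosamine chains with N-acetylglucosamine, and St6gal1 caps galactose with sialic acid. B3galt5 lies on chromosome 16 at 96235801 to 96319859, B3gnt7 on chromosome 1 at 86303221 to 86307305 and St6gal1 on chromosome 16 at 23224729 to 23360350. Counts were made per gene, so every value is for a gene as a whole and not for 1 exon or transcript.

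**Figure D1:**
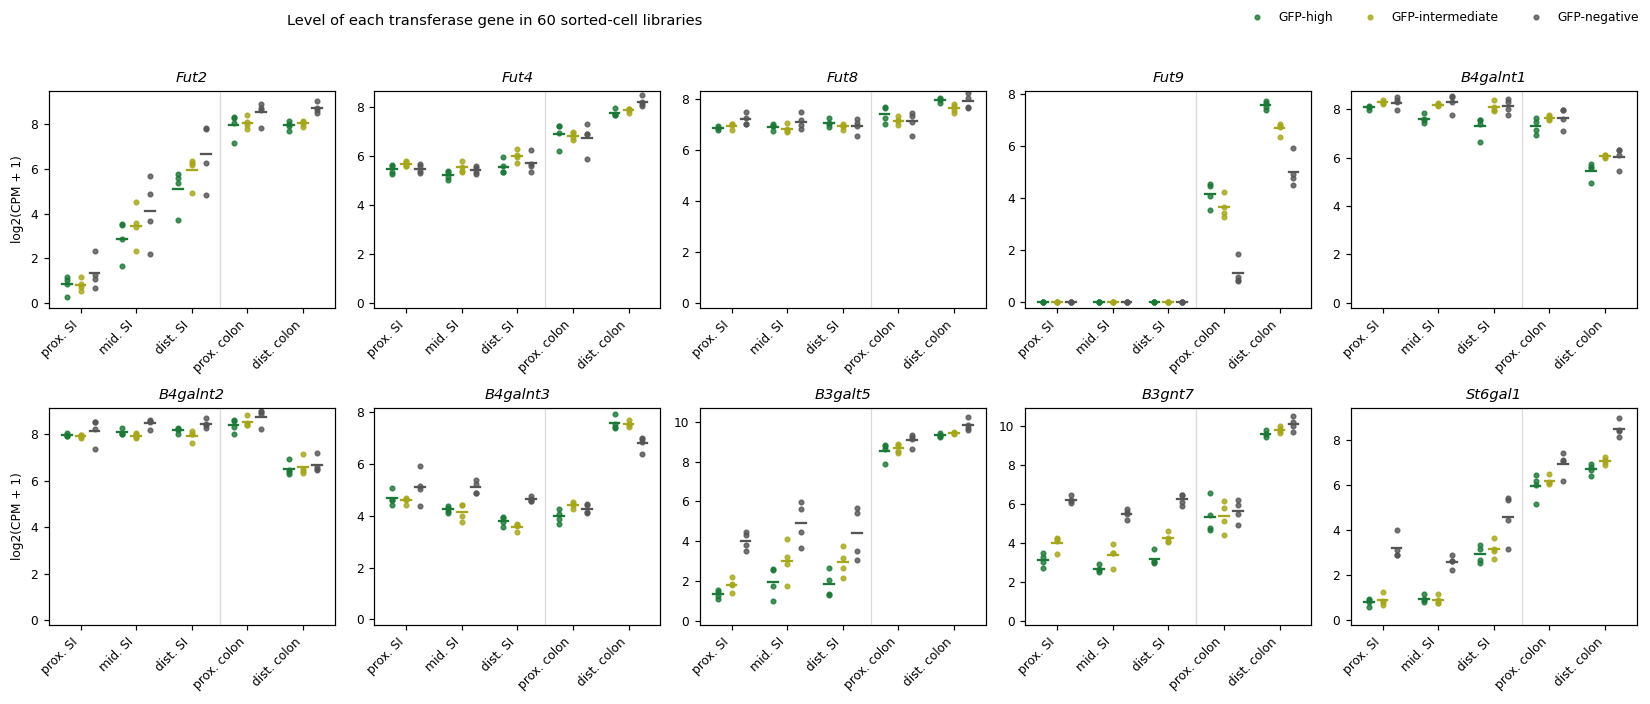
Level of each of the 10 genes in 60 libraries, as log2(CPM + 1), by gut part (SI, small intestine; prox., mid. and dist. for its proximal, middle and distal parts) and GFP fraction. Points are libraries and bars are means of log2(CPM + 1) over 4 libraries. The vertical axis differs between panels. Fut9 sat at or next to 0 in the 36 small intestinal libraries and reached 207 CPM in distal colon GFP-high cells.

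Compared between organs, GFP-high cells of the colon carried more Fut2, Fut4, Fut8, Fut9, B4galnt3, B3galt5, B3gnt7 and St6gal1 and less B4galnt1 and B4galnt2 than those of the small intestine. All 10 members passed an adjusted p below 0.05 (edgeR's quasi-likelihood test, Benjamini-Hochberg adjustment over all 23360 genes tested), 8 higher and 2 lower in colon. Among all genes tested in GFP-high cells, 20.9% were higher and 21.3% lower in colon. Each organ value is a mean over its parts, which did not always agree. In proximal colon GFP-high cells B4galnt3, at 14.9 CPM, lay within the small intestinal part means of 13.0 to 24.7 CPM. B4galnt2, at 338 CPM there, lay above the small intestinal part means of 251 to 291 CPM. The same 8 and 2 members passed in GFP-intermediate cells, where 22.1% of all genes were higher and 22.0% lower, and in GFP-negative cells, where 28.1% were higher and 22.4% lower. Over the 9 members with a fitted difference, which leave out Fut9, the median log2 difference was 1.96 in GFP-high cells, against -0.04 over all genes.

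Cell type markers moved with the organ as well. In GFP-high cells the 12 goblet cell genes summed to 13790 to 33150 CPM in colon and 2260 to 4573 CPM in small intestine, with 7 higher and 2 lower in colon, and the 5 deep crypt secretory genes, 2 of which are also in the goblet list, were all higher. The 10 genes of Paneth cells, which sit at the crypt base of the small intestine, were all lower in colon, at 18.6 to 404 CPM, against 6238 to 31270 CPM in small intestine. In colon Defa26 was at 0 in both parts and Defa24 in the distal part. Among tuft cell genes 10 of 12 were lower in colon, among crypt base stem cell genes 9 of 12 and among small intestinal enterocyte genes 12 of 12. The tuft genes summed to 63.9 to 85.8 CPM in distal colon GFP-high libraries. In proximal colon GFP-high libraries they summed to 223 to 391 CPM, within the 162 to 569 CPM of small intestinal ones. In GFP-negative cells the calls of tuft genes went the other way, with 11 of 12 higher in colon. The part of these cell types in the members' organ differences was not tested.

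The gene with the widest organ difference among those with counts on both sides was B3galt5. In GFP-high cells B3galt5 had 602, 624, 640 and 695 CPM in distal colon and 397, 443, 232 and 457 CPM in proximal colon. In the small intestine it had 1.54, 3.17, 1.48 and 5.31 CPM in the distal part, 2.30, 4.85, 0.96 and 5.08 CPM in the middle part and 1.15, 1.71, 1.40 and 1.87 CPM in the proximal part. The 2 organs did not overlap, and the log2 difference of colon minus small intestine was 7.66 ± 0.37 (SE; adjusted p = 2.72e-24), a 203-fold difference.

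St6gal1, which caps galactose with sialic acid, also separated the organs in every library. In GFP-high cells St6gal1 averaged 105 ± 15.7 CPM in distal colon and 64.6 ± 22.1 CPM in proximal colon, against 6.92 ± 2.16 CPM in distal, 0.96 ± 0.22 CPM in middle and 0.75 ± 0.17 CPM in proximal small intestine (SD, n = 4 each). The log2 difference between the organs was 5.59 ± 0.23 (SE; adjusted p = 4.55e-27), 5.73 ± 0.23 in GFP-intermediate cells and 4.35 ± 0.21 in GFP-negative cells. Fut2, the H-structure enzyme, differed by 5.36 ± 0.39 in GFP-high cells (adjusted p = 2.76e-17), by 4.98 ± 0.38 in GFP-intermediate cells and by 4.49 ± 0.37 in GFP-negative cells. Both genes had no overlap between the organs in any of the 3 fractions. For Fut2 in GFP-negative cells the gap was narrow. The highest distal small intestinal library had 227.9 CPM and the lowest proximal colon library 229.6 CPM.

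Fut9 was counted almost entirely in colon. In all, 2 counts of Fut9 were found in the 36 small intestinal libraries, both in 1 middle small intestinal GFP-intermediate library. In GFP-high cells Fut9 had 179, 165, 198 and 207 CPM in distal colon and 16.0, 10.6, 22.0 and 21.3 CPM in proximal colon, and no count in the 12 small intestinal libraries. Taking 3 counts per library as the floor, a mean of 0.04 CPM in those libraries, Fut9 was at least 2560-fold higher in colon than in small intestine, at least 4680-fold in distal colon and at least 437-fold in proximal colon. In GFP-negative cells the floor gave at least 402-fold for the colon, at least 775-fold for distal colon and at least 29.7-fold for proximal colon. GFP-intermediate cells averaged 101 ± 14.1 CPM in distal and 11.9 ± 4.12 CPM in proximal colon (SD, n = 4 each). A floor of this kind covers counting error only.

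Fut4 and Fut8 were expressed in both organs and differed less. Fut4 was 3.88-fold higher in colon in GFP-high cells (log2 difference 1.96 ± 0.12, SE; adjusted p = 1.22e-19), and the lowest colon library, at 72.3 CPM, exceeded the highest small intestinal one, at 61.4 CPM. Fut8, the core fucosyltransferase, was 1.69-fold higher (0.76 ± 0.10, adjusted p = 2.99e-09), with overlapping libraries. Its colon libraries ran from 129 to 263 CPM and its small intestinal libraries from 105 to 154 CPM. Of the 9 members with counts in every group, Fut8 had the narrowest range over the 15 groups, with the highest group mean 2.19-fold over the lowest.

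B4galnt3 and B3gnt7 were high in colon through its distal part, and their proximal colon levels were much lower. In GFP-high cells B4galnt3 differed by 1.57 ± 0.12 on the log2 scale (SE; adjusted p = 1.52e-16) between colon and small intestine, yet proximal colon averaged 14.9 ± 2.84 CPM, with 13.0 ± 1.58 CPM in distal, 17.9 ± 1.53 CPM in middle and 24.7 ± 5.30 CPM in proximal small intestine (SD, n = 4 each). B3gnt7 differed by 4.74 ± 0.21 (adjusted p = 1.15e-25), and its proximal colon libraries, at 24.0 to 92.0 CPM, still lay above all 12 small intestinal GFP-high libraries, at 4.61 to 11.9 CPM. In GFP-negative cells the organ difference of B3gnt7 was 1.93 ± 0.19 and the organs overlapped.

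The 2 members lower in colon were the N-acetylgalactosaminyltransferases of gangliosides and of the Sda structure. In GFP-high cells B4galnt1 had a log2 difference of -1.28 ± 0.12 (SE; adjusted p = 9.25e-13), and in GFP-negative cells it was -1.38 ± 0.12 (SE; adjusted p = 5.49e-14). In GFP-high cells its proximal colon, at 160 ± 33.3 CPM, was near its distal small intestine, at 162 ± 43.1 CPM (SD, n = 4 each). Its distal colon averaged 44.2 ± 9.65 CPM, and its middle and proximal small intestine 195 ± 23.4 and 272 ± 12.8 CPM. B4galnt2 had a log2 difference of -0.62 ± 0.12 in GFP-high cells (adjusted p = 2.14e-05). Its distal colon averaged 92.0 ± 20.0 CPM and its proximal colon 338 ± 63.3 CPM (SD, n = 4 each), against means of 251 to 291 CPM in the 3 small intestinal parts. The colon parts thus lay on either side of the small intestine in mean level.

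**Figure D2:**
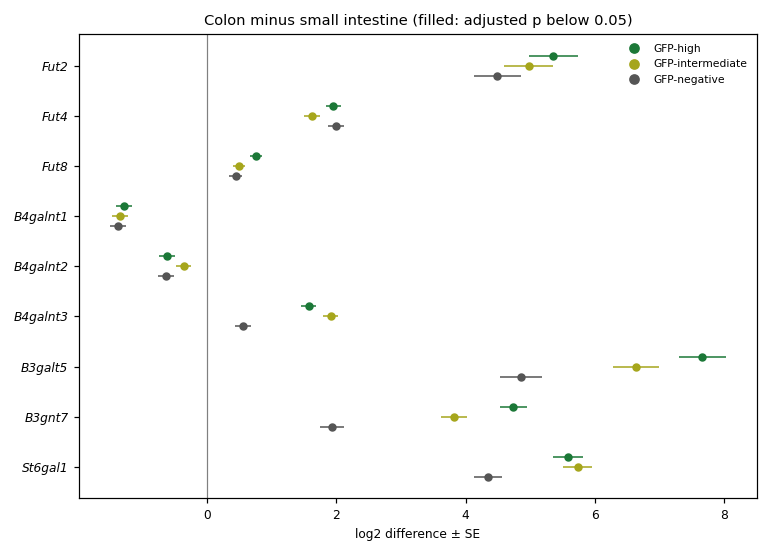
Log2 difference of colon minus small intestine with its SE, for GFP-high, GFP-intermediate and GFP-negative cells, each organ the equal-weight mean of its parts. Filled points have an adjusted p below 0.05, and all points shown are filled. Fut9 is left out because its small intestinal groups had almost no count; B3galt5 had the largest value shown, 7.66 in GFP-high cells, and B4galnt1 and B4galnt2 lie below 0.

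Along the colon, GFP-high cells of the distal part carried far more B3gnt7, B4galnt3 and Fut9, somewhat more Fut4 and Fut8, and less B4galnt1 and B4galnt2 than those of the proximal part. In this comparison 5 members were higher and 2 lower in distal colon, while 3.74% of all genes were higher and 4.05% lower. In GFP-intermediate cells the same 7 members passed in the same directions, beside 3.27% of all genes higher and 4.07% lower. In GFP-negative cells these 7 and St6gal1 passed, beside 6.39% higher and 7.17% lower. Among markers, 8 of 12 tuft genes were lower in distal colon GFP-high cells, at a sum of 63.9 to 85.8 CPM, against 223 to 391 CPM in proximal colon, and 4 of 12 surface colonocyte genes were lower and none higher. Of the 12 goblet genes 2 were higher and 1 lower there. In GFP-negative cells 6 goblet genes were higher and 1 lower, while 8 of 12 enteroendocrine and 7 of 18 leukocyte genes were lower in distal colon. The part of these cell types in the members' differences was not tested. The fractions of a colon part may share animals, which the labels do not state, so they may not repeat the comparison independently.

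B3gnt7, the lactosamine chain extender, had 752, 871, 693 and 764 CPM in distal colon GFP-high cells, against 24.0, 26.1, 41.9 and 92.0 CPM in proximal colon GFP-high cells. The parts did not overlap, and the proximal library numbered 4 was the highest of its group. The log2 difference was 4.06 ± 0.34 (SE; adjusted p = 2.43e-13), or 16.7-fold, and it was 4.33 ± 0.34 in GFP-intermediate and 4.43 ± 0.34 in GFP-negative cells.

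B4galnt3, the LacdiNAc enzyme, had 186, 164, 170 and 239 CPM in distal colon GFP-high cells, against 13.5, 15.9, 11.8 and 18.3 CPM in proximal colon GFP-high cells. Its log2 difference was 3.67 ± 0.21 (SE; adjusted p = 1.37e-19), or 12.7-fold. In GFP-negative cells it had 124, 113, 81.8 and 122 CPM in distal colon and 20.0, 20.7, 16.7 and 16.2 CPM in proximal colon, a log2 difference of 2.59 ± 0.20.

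B4galnt2, the Sda enzyme, ran the other way along the colon. It had 122, 86.6, 81.2 and 78.6 CPM in distal colon GFP-high cells, against 386, 391, 258 and 317 CPM in proximal colon GFP-high cells. The library numbered 1 was the highest of the distal group in all 3 fractions, yet no distal library reached any proximal one. The log2 difference was -1.88 ± 0.19 (SE; adjusted p = 7.06e-11). B4galnt1 paralleled it, with 46.7, 30.3, 47.6 and 52.4 CPM in distal and 124, 178, 142 and 197 CPM in proximal colon GFP-high cells, a log2 difference of -1.86 ± 0.19 (adjusted p = 1.44e-10).

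The promoter windows of B3gnt7 and B4galnt3, the members with the largest positive log2 differences along the colon in GFP-high cells, and of B4galnt2, the member with the largest negative one, are shown because these genes moved together or apart. The table (GRCm38.p6) gives 300 bases for each start, 250 before and 50 after it, and held windows for 7 of the 10 members. Bases are in lower case, and capitals mark matches to the GC box, GGGCGG, on either strand. B3gnt7 is shown at chr1:86302971-86303270 on the plus strand, B4galnt3 at chr6:120294848-120295147 on the minus strand and B4galnt2 at chr11:95914822-95915121 on the minus strand, each 5′ to 3′ along its gene.
B3gnt7: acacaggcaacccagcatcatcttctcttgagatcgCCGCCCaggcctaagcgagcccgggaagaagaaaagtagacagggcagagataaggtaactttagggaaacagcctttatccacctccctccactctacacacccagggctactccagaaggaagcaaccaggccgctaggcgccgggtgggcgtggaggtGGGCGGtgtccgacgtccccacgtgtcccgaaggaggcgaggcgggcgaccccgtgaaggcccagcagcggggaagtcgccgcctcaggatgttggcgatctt
B4galnt3: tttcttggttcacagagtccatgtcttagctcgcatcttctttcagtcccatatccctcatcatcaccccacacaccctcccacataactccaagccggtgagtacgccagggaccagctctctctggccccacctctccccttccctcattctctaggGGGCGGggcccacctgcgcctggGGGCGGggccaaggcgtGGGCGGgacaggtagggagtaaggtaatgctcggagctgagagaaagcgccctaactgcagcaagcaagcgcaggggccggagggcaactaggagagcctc
B4galnt2: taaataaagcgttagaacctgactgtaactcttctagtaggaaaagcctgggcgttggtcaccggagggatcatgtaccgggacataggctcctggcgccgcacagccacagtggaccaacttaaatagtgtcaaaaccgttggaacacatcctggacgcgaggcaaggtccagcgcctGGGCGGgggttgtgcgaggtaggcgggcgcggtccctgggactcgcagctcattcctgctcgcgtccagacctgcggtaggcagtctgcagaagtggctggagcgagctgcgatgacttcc

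B3gnt7 held 2 GC box matches, B4galnt3 held 3 and B4galnt2 held 1. GC boxes were common, with a match in 35.6% of the 32817 distinct promoter windows in the table. The same windows were searched on both strands for a motif of the CDX and posterior HOX type (TTTATNG, in 10.9% of all windows), of the TCF/LEF type (CTTTGNT, in 18.6%), of the HNF4 type (CAAAGTC, in 4.44%) and for a TATA box (TATAAA, in 13.6%). The TCF/LEF and HNF4 letters overlap in part, so 1 stretch can match both. None of these 4 was found in the 3 windows shown, which says only that these letters are not in these 300 bases. A match is a description of the letters and not a binding site.

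Among the fucosyltransferases Fut9 had the largest difference along the colon. Its log2 difference between distal and proximal colon was 3.42 ± 0.36 in GFP-high cells (SE; adjusted p = 6.24e-08), 3.08 ± 0.35 in GFP-intermediate cells and 4.70 ± 0.39 in GFP-negative cells. In GFP-negative cells the levels behind it were 25.9, 28.9, 21.3 and 58.8 CPM in distal colon and 0.77, 0.83, 0.95 and 2.63 CPM in proximal colon. Fut4 had 203, 213, 203 and 254 CPM in distal and 124, 150, 72.3 and 150 CPM in proximal colon GFP-high cells, a log2 difference of 0.82 ± 0.19 (adjusted p = 0.00254). For Fut4 the difference was 1.41 ± 0.19 in GFP-negative cells.

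Fut8 differed by 0.55 ± 0.15 in GFP-high cells (SE; adjusted p = 0.0122), by 0.49 ± 0.15 in GFP-intermediate cells (adjusted p = 0.0326) and by 0.77 ± 0.15 in GFP-negative cells (adjusted p = 0.00017). The GFP-high value for Fut8 lost its call without the proximal colon library numbered 3 (0.44, adjusted p = 0.11) or numbered 4 (0.49, adjusted p = 0.0752). The GFP-intermediate value lost it without any of 6 of its 8 libraries. Fut2 did not pass along the colon (-0.05 ± 0.53, adjusted p = 1.0), with 251 ± 31.9 CPM in distal and 259 ± 80.8 CPM in proximal colon GFP-high cells (SD, n = 4 each).

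B3galt5 and St6gal1 gave larger means in distal colon. In the fit to all libraries B3galt5 passed in no fraction, and St6gal1 in GFP-negative cells alone. B3galt5 had a log2 difference of 0.74 ± 0.46 in GFP-high cells (SE; adjusted p = 0.425), although its 4 distal libraries, at 602 to 695 CPM, all lay above its 4 proximal ones, at 232 to 457 CPM. The SE rests on a spread estimated over all 15 groups, and fitting the 2 compared groups alone gave 0.74 with an adjusted p of 0.0179. St6gal1 had 112, 103, 84.8 and 122 CPM in distal and 64.0, 88.0, 35.1 and 71.4 CPM in proximal colon GFP-high cells (0.71 ± 0.31, adjusted p = 0.182). In GFP-negative cells St6gal1 was 2.86-fold higher in distal colon, with 281, 342, 516 and 355 CPM, against 138, 175, 72.6 and 136 CPM in proximal colon (1.52 ± 0.31, adjusted p = 0.000365).

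Along the small intestine, Fut2 and St6gal1 were higher and B4galnt3 lower in the distal than in the proximal part. In GFP-high cells 2 of the 9 members that could be tested were higher and 2 lower, beside 6.39% of all genes higher and 5.42% lower. In GFP-intermediate cells 3 were higher and 1 lower, beside 5.25% and 3.56% of all genes. In GFP-negative cells 2 were higher and 1 lower, beside 6.67% and 8.9% of all genes. Fut9 could not be tested in the small intestine. Markers also moved along this axis. The goblet genes had 6 of 12 higher in distal GFP-high cells, 9 in GFP-intermediate and 7 in GFP-negative cells, with none lower, and the deep crypt secretory genes had 4 of 5, 4 and 3 higher. In GFP-high cells the goblet genes summed to 3658 to 4573 CPM in the distal and 2866 to 3689 CPM in the proximal part, and 6 of 12 enterocyte genes were lower in the distal part. The part of these cell types in the members' differences was not tested.

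Fut2 climbed steeply towards the distal end in all 3 fractions. In GFP-high cells it had 46.9, 41.0, 12.2 and 53.5 CPM in distal, 10.3, 10.6, 2.15 and 6.36 CPM in middle and 1.05, 0.23, 1.29 and 0.83 CPM in proximal small intestine. The distal and proximal libraries did not overlap, and the library numbered 3 was the lowest in the middle and distal parts. The log2 difference of distal minus proximal was 5.50 ± 0.67 (SE; adjusted p = 1.74e-08), or 45.2-fold, and it was 6.35 ± 0.70 in GFP-intermediate and 6.26 ± 0.68 in GFP-negative cells. Over all 15 groups the library numbered 3 held the lowest Fut2 level in 11 and the library numbered 2 the highest in 8. What differed about these libraries was not tested.

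St6gal1 differed by 3.20 ± 0.36 in GFP-high cells (SE; adjusted p = 3.27e-09), by 3.20 ± 0.36 in GFP-intermediate cells (adjusted p = 1.75e-09) and by 1.62 ± 0.32 in GFP-negative cells (adjusted p = 0.000139). In GFP-high cells its distal libraries held 5.39, 8.13, 9.33 and 4.82 CPM, and its proximal ones 0.84, 0.51, 0.90 and 0.77 CPM. Its middle part held 0.74 to 1.27 CPM. B4galnt3 fell by 0.93 ± 0.19 on the log2 scale in GFP-high cells (adjusted p = 0.000342) and had a log2 difference of -1.07 ± 0.19 in GFP-intermediate cells (adjusted p = 3.22e-05). In GFP-negative cells it was -0.60 ± 0.19 (adjusted p = 0.0195), a call lost without the proximal library numbered 2 (-0.25, adjusted p = 0.368).

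Of the remaining members, B4galnt1 passed along the small intestine in GFP-high cells (-0.74 ± 0.19, SE; adjusted p = 0.00426), and lost the call without the distal library numbered 1, which at 99.8 CPM lay below the 168 to 191 CPM of the other 3 (-0.57, adjusted p = 0.0526). Whether the fractions differed in this was tested as an interaction of GFP-high against GFP-negative cells, and the B4galnt1 value of -0.61 ± 0.26 had an adjusted p of 0.185. B3galt5 passed in GFP-intermediate cells (1.49 ± 0.49, adjusted p = 0.0458) and lost the call without any of 5 of the 8 libraries.

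**Figure D3:**
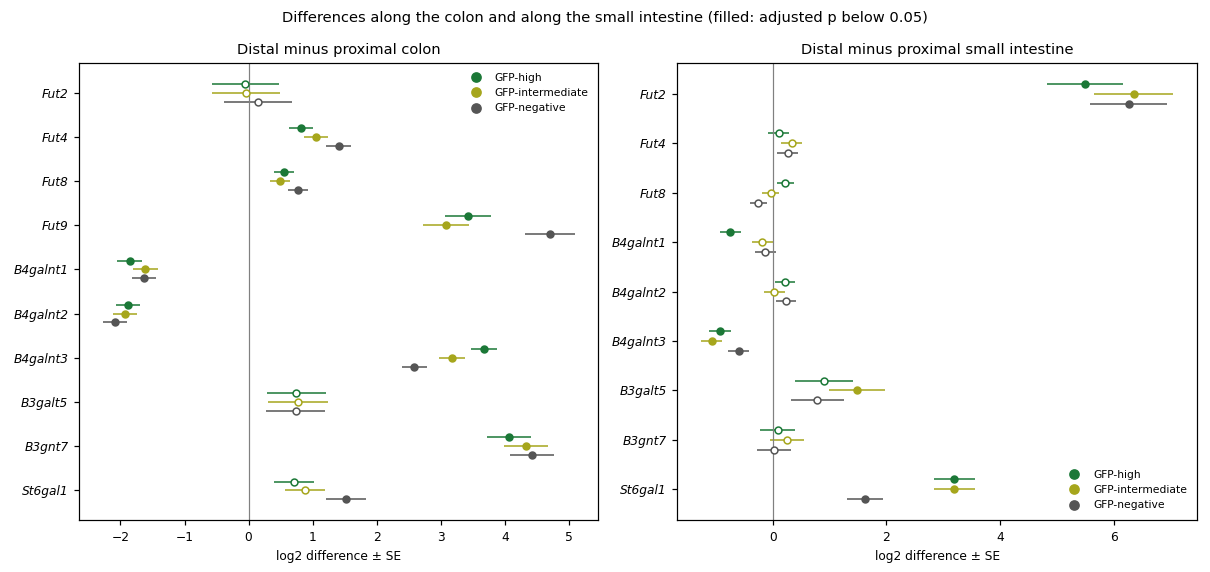
Log2 difference of distal minus proximal colon (left) and of distal minus proximal small intestine (right), with SE, in GFP-high, GFP-intermediate and GFP-negative cells. Filled points have an adjusted p below 0.05, and Fut9 is shown for the colon only. B3gnt7 and B4galnt3 lie at 4.06 and 3.67 in colon GFP-high cells but at 0.09 and -0.93 in the small intestine, while Fut2 lies at -0.05 and 5.50.

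Between GFP-high and GFP-negative cells all calls in the small intestine were in 1 direction. Of the 9 members testable, none was higher and 5 were lower in GFP-high cells of the proximal part, 6 in the middle part and 6 in the distal part. The shares of all genes were 22.5% higher and 24.6% lower in the proximal part, 22.7% and 25.6% in the middle part, and 25.7% and 26.2% in the distal part. The median log2 difference over the 9 was -0.55, -0.90 and -0.88 in the proximal, middle and distal parts, against 0.00, -0.04 and -0.005 over all genes.

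Marker genes moved with this contrast. The leukocyte genes summed to 481 to 4099 CPM in GFP-negative libraries of the small intestine, against 24.7 to 51.3 CPM in GFP-high ones, and 16 to 17 of 18 were lower in GFP-high cells. The 12 enterocyte genes summed to 1303 to 3876 CPM in GFP-high libraries and 19520 to 50140 CPM in GFP-negative ones, and the 12 goblet cell genes to 2260 to 4573 CPM in GFP-high and 33690 to 61300 CPM in GFP-negative ones. In these 2 lists no marker was at 0 in these groups. Enteroendocrine genes were lower in GFP-high cells too, 11 of 12 in each part. Paneth and tuft genes ran the other way. All 10 Paneth genes were higher in GFP-high cells of each part, at 6238 to 31270 CPM, against 481 to 1641 CPM in GFP-negative cells, and 10 to 12 of the 12 tuft genes were higher, at 162 to 569 CPM, against at most 122 CPM in GFP-negative cells. The part of these cell types in the members' differences was not tested.

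B3galt5 and B3gnt7, the chain builders, passed in each part. B3galt5 was lower in GFP-high cells by a log2 difference of -3.36 ± 0.53 in the proximal, -3.43 ± 0.52 in the middle and -3.25 ± 0.51 in the distal part (SE; adjusted p = 4.38e-07, 1.66e-07 and 4.2e-07). B3gnt7 had -3.24 ± 0.33, -3.05 ± 0.33 and -3.17 ± 0.33 (adjusted p = 7.93e-12, 3.64e-11 and 9.86e-12). In the distal part B3gnt7 had 7.29, 7.15, 6.80 and 11.9 CPM in GFP-high cells, against 66.6, 86.3, 58.5 and 87.6 CPM in GFP-negative cells, and the 2 groups did not overlap in any part.

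St6gal1 was lower in GFP-high cells, at -3.57 ± 0.37 on the log2 scale in the proximal part, -2.41 ± 0.35 in the middle and -1.995 ± 0.32 in the distal part (SE; adjusted p = 1.29e-11, 7.42e-08 and 6.63e-07). In the distal part its GFP-negative libraries were spread, at 7.99, 20.7, 41.9 and 39.8 CPM, against 5.39, 8.13, 9.33 and 4.82 CPM in GFP-high cells. The gene is also expressed by lymphocytes. In the proximal part the GFP-negative library numbered 1 was highest both in St6gal1, at 15.2 CPM, and in the leukocyte gene Ptprc, at 351 CPM. In the distal part the GFP-negative libraries had 167, 76.7, 242 and 423 CPM of Ptprc, listed by library as for St6gal1 above. The part of leukocyte RNA in the St6gal1 differences was not tested.

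The capping genes of the other families had smaller fitted differences between the fractions of the small intestine. Fut2 had log2 differences of -1.69 ± 0.55 in the middle part (SE; adjusted p = 0.00928), and of -1.84 ± 0.55 distally (adjusted p = 0.00405). The middle value for Fut2 lost its call without the GFP-negative library numbered 2 (-0.99, adjusted p = 0.144), and the proximal value was -1.07 ± 0.63 (adjusted p = 0.16). B4galnt3 differed by -0.55 ± 0.19 in the proximal, -0.90 ± 0.19 in the middle and -0.88 ± 0.19 distally (adjusted p = 0.0124, 6.57e-05 and 8.54e-05). Without the GFP-negative library numbered 2, at 59.6 CPM against 19.6 to 34.4 CPM in the other 3, the proximal value of B4galnt3 was -0.20 (adjusted p = 0.365). Without the GFP-high library numbered 4 it was -0.46 (adjusted p = 0.0568).

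B4galnt1 differed by -0.72 ± 0.19 in the middle part (SE; adjusted p = 0.00103), and by -0.82 ± 0.19 distally (adjusted p = 0.00018). Fut8 passed in the proximal part alone, at -0.36 ± 0.15 (adjusted p = 0.0447), and lost the call without any of 6 of the 8 libraries. Fut4 and B4galnt2 did not pass in any part. B4galnt2 was -0.25 ± 0.18 in the proximal, -0.39 ± 0.18 in the middle and -0.27 ± 0.18 in the distal part (SE; adjusted p = 0.268, 0.0687 and 0.219). Without the libraries numbered 1 it was -0.47, -0.43 and -0.36 and passed in each (adjusted p = 0.00823, 0.0136 and 0.0384).

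In the colon GFP-high cells of both parts held more Fut9 and less St6gal1 than GFP-negative cells. In the proximal colon 1 member was higher and 1 lower in GFP-high cells, beside 11.3% of all genes higher and 14.0% lower. In the distal colon 2 were higher and 2 lower, beside 11.2% and 13.9%. Leukocyte genes summed to 10.4 to 18.2 CPM in proximal colon GFP-high libraries and 189 to 1573 CPM in proximal colon GFP-negative ones, and to 6.7 to 13.0 CPM and 133 to 404 CPM in those of the distal colon. The 12 enteroendocrine genes listed summed to 110 to 374 CPM in proximal colon GFP-high libraries and 3823 to 11540 CPM in GFP-negative ones. In the distal colon 8 of 12 enteroendocrine genes were lower, and 11 of 12 tuft genes, which summed to 63.9 to 85.8 CPM in GFP-high libraries and 277 to 373 CPM in GFP-negative ones. Goblet genes summed there to 18840 to 23800 CPM in GFP-high and 39920 to 60440 CPM in GFP-negative libraries, with 5 of 12 lower, and 4 of 12 were lower in the proximal colon. Surface colonocyte genes were lower in GFP-high cells of both parts, 7 of 12 in the proximal and 6 of 12 in the distal colon. Their part in the members' differences was not tested.

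Fut9 was 13.5-fold higher in GFP-high cells of the proximal colon, with 16.0, 10.6, 22.0 and 21.3 CPM, against 0.77, 0.83, 0.95 and 2.63 CPM in GFP-negative cells (log2 difference 3.75 ± 0.37, SE; adjusted p = 2.03e-08). In the distal colon it was 5.55-fold higher, with 179, 165, 198 and 207 CPM in GFP-high cells, against 25.9, 28.9, 21.3 and 58.8 CPM in GFP-negative cells (2.47 ± 0.34, adjusted p = 5.29e-06). GFP-intermediate cells lay between, at 101 CPM in the distal and 11.9 CPM in the proximal colon. The difference between the 2 parts for Fut9, tested as an interaction, was -1.28 ± 0.47 (adjusted p = 0.34), and without the proximal GFP-negative library numbered 4 it was -1.89 (adjusted p = 0.0271).

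B4galnt3 was the other member higher in GFP-high cells, and passed in the distal colon, with 186, 164, 170 and 239 CPM, against 124, 113, 81.8 and 122 CPM in GFP-negative cells (0.78 ± 0.19, SE; adjusted p = 0.00115). In the proximal colon its log2 difference was -0.30 ± 0.19 (adjusted p = 0.248). The interaction of fraction and colon part for B4galnt3 was 1.09 ± 0.26 (adjusted p = 0.0304), while 0.36% of all genes had a higher and 0.257% a lower interaction. That call was lost without any 1 of 7 of its 16 libraries, and with the 2 fractions and parts fitted alone (adjusted p = 0.0753).

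St6gal1 was lower in GFP-high cells of both parts. In the distal colon it had 112, 103, 84.8 and 122 CPM in GFP-high cells, against 281, 342, 516 and 355 CPM in GFP-negative cells (-1.82 ± 0.32, SE; adjusted p = 1.8e-05). In the proximal colon the value was -1.01 ± 0.31 (adjusted p = 0.0118), and the groups overlapped. Without the proximal GFP-high library numbered 3 the value of St6gal1 was -0.76 (adjusted p = 0.0921), and without the GFP-negative library numbered 2 it was -0.84 (adjusted p = 0.0574). The proximal GFP-negative library numbered 3 had the lowest St6gal1, at 72.6 CPM, and the highest Ptprc, at 429 CPM. In distal colon GFP-negative cells Ptprc was highest in the library numbered 4, at 161 CPM, and St6gal1 in the library numbered 3. The part of leukocyte RNA in these differences was not tested.

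B4galnt1 was lower in distal colon GFP-high cells, with 46.7, 30.3, 47.6 and 52.4 CPM, against 79.8, 67.4, 79.1 and 42.4 CPM in GFP-negative cells (-0.60 ± 0.19, SE; adjusted p = 0.0122). The groups overlapped, and the call was lost without the GFP-high library numbered 2 (-0.46, adjusted p = 0.0788), the GFP-negative library numbered 1 (-0.51, adjusted p = 0.0589) or numbered 3 (-0.52, adjusted p = 0.0547). Fut4 had 203 to 254 CPM in GFP-high and 268 to 358 CPM in GFP-negative cells of the distal colon (-0.47 ± 0.19, adjusted p = 0.0652), and with the replicate number as a block the adjusted p was 0.0285. B3galt5, B3gnt7 and Fut2 had differences of -0.53 ± 0.46, -0.53 ± 0.30 and -0.77 ± 0.53 there and did not pass, but with the 2 groups fitted alone their adjusted p was 0.0177, 0.0377 and 0.00327. In the proximal colon B4galnt1 was -0.37 ± 0.18 (adjusted p = 0.134), and without the GFP-negative library numbered 4 it was -0.53 (adjusted p = 0.0296).

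**Figure D4:**
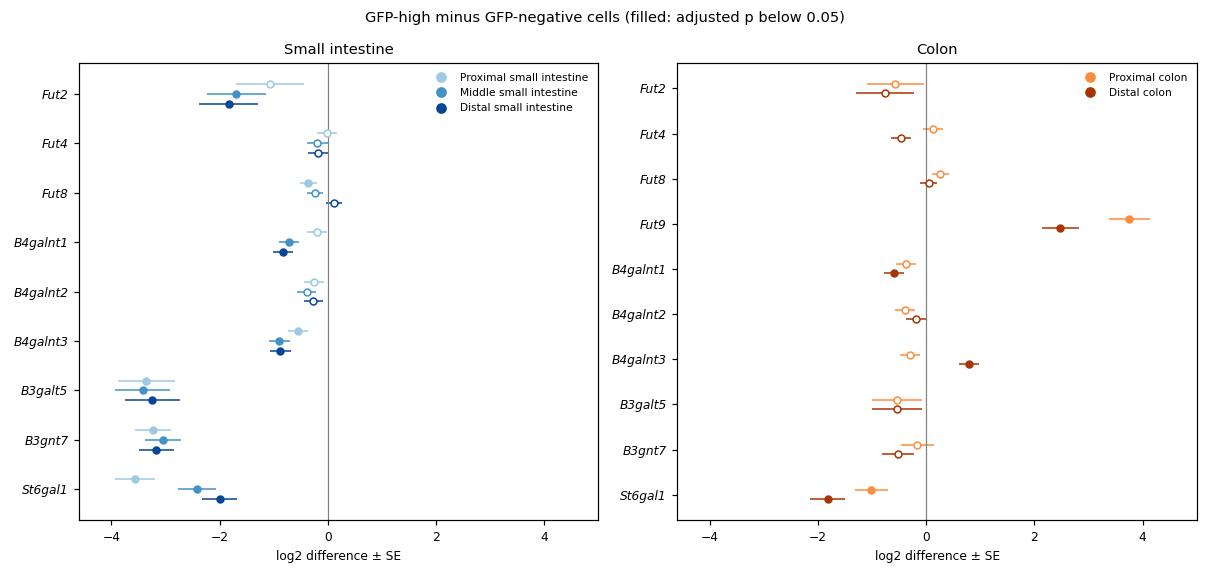
Log2 difference of GFP-high minus GFP-negative cells with SE, in the 3 parts of the small intestine (left) and the 2 parts of the colon (right). Filled points have an adjusted p below 0.05, and Fut9 is shown for the colon only. B3galt5 and B3gnt7 lie between -3.43 and -3.05 in the small intestine and between -0.54 and -0.16 in the colon, and Fut9 lies at 3.75 and 2.47.

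Whether the fraction difference itself differed between the organs was tested as an interaction over the 9 members testable. It passed for 4, all with a higher value in colon, while 14.5% of all genes had a higher and 17.7% a lower interaction. B3gnt7 had an interaction of 2.81 ± 0.28 (SE; adjusted p = 1.08e-11) and B3galt5 one of 2.81 ± 0.44 (adjusted p = 7.23e-07). St6gal1 had 1.24 ± 0.29 (adjusted p = 0.000605) and B4galnt3 1.01 ± 0.17 (adjusted p = 3.04e-06). Fut8 had 0.31 ± 0.14 (adjusted p = 0.0768), and its adjusted p was between 0.0311 and 0.0488 without any 1 of 5 libraries. Along the small intestine St6gal1 had an interaction of 1.57 ± 0.47 (adjusted p = 0.0475), while 2.54% of all genes had a higher and 0.993% a lower one. This St6gal1 interaction lost its call without any 1 of 9 of its 16 libraries, and without all libraries numbered 1 (1.02, adjusted p = 0.362).

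Between GFP-high and GFP-intermediate cells of the small intestine, 4 of 9 members were lower in GFP-high cells and none higher, beside 10.4% of all genes higher and 13.4% lower. These were B3galt5 at -1.14 ± 0.29 (SE; adjusted p = 0.00207), B3gnt7 at -0.99 ± 0.18 (adjusted p = 3.86e-05), B4galnt1 at -0.52 ± 0.11 (adjusted p = 0.000237) and Fut4 at -0.33 ± 0.11 (adjusted p = 0.0249). The Fut4 call was lost without any 1 of 3 libraries, and without those numbered 1 (adjusted p = 0.109). St6gal1, also among the members lower against GFP-negative cells in each part, was -0.12 ± 0.20 here (adjusted p = 0.768). Beside these, 8 of 12 goblet and 7 of 12 enterocyte genes were lower and 11 of 12 crypt base stem cell genes higher in GFP-high cells, and their part was not tested. In the colon Fut9 was higher (0.72 ± 0.23, adjusted p = 0.0414) and B4galnt1 lower (-0.46 ± 0.13, adjusted p = 0.0179) in GFP-high cells, beside 4.83% of all genes higher and 7.2% lower. The Fut9 call was lost without any 1 of 12 of the 16 colon libraries, and the B4galnt1 call without the proximal GFP-high library numbered 1 (-0.41, adjusted p = 0.0628). In the colon 8 of 12 surface colonocyte and 3 of 12 goblet genes were lower in GFP-high cells, with their part again not tested. Fut8 was 0.29 ± 0.11 in the colon (adjusted p = 0.0594), and with the replicate number as a block its adjusted p was 0.0494.

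Compared between genes per kilobase of counted length, the leading member was B4galnt2 in every group from the proximal small intestine to the proximal colon and B3gnt7 in the distal colon. In GFP-high cells B4galnt2 led in the proximal small intestine, with a mean of 146 CPM per kilobase, followed by B4galnt1 with 78.8, and in the proximal colon, with 196, followed by B3galt5 with 62.1. In distal colon GFP-high cells B3gnt7 led with 186 CPM per kilobase, followed by B3galt5 with 104. B4galnt2, Fut4 and B4galnt3 had 53.4, 53.5 and 50.3 CPM per kilobase there, and the order of these 3 means was not tested. Fut9 had 13.6 and B4galnt1 12.8 CPM per kilobase in the same cells. The order depends on the division by length, with 1722 counted bases for B4galnt2, 3454 for B4galnt1 and 6159 for B3galt5. In CPM, GFP-high cells of the proximal small intestine averaged 272 for B4galnt1 and 251 for B4galnt2. Those of the proximal colon averaged 382 for B3galt5 and 338 for B4galnt2. In GFP-high cells of the middle and distal small intestine B4galnt2 led in CPM too.

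**Figure D5:**
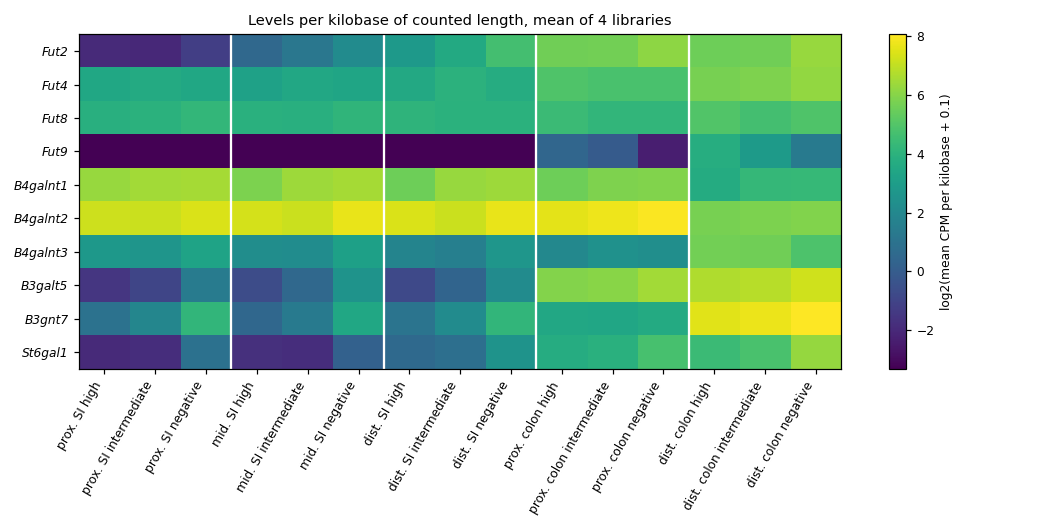
Mean level per kilobase of counted length of the 10 genes in 15 groups (4 libraries each), as log2(CPM per kilobase + 0.1). B4galnt2 had the highest level from the proximal small intestine to the proximal colon, and B3gnt7 in the distal colon, at 186 CPM per kilobase in GFP-high cells.

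Ordered by group mean, distal colon GFP-negative cells were highest in 5 members, Fut2, Fut4, B3galt5, B3gnt7 and St6gal1. Distal colon GFP-high cells were highest in 3, Fut8, Fut9 and B4galnt3, and lowest in B4galnt1 and B4galnt2. Neighbours in these orders mostly overlapped in their libraries. For Fut2 and Fut8 all 14 neighbouring pairs of groups overlapped, and for B4galnt1 11 of 14. For Fut9 10 of 14 did, most of them between small intestinal groups at or next to 0 CPM, which could only overlap. The 4 Fut9 pairs that did not overlap each held a colon group. For B4galnt3 2 neighbouring pairs did not overlap. Distal colon GFP-intermediate cells, at 167 to 205 CPM, lay above distal colon GFP-negative cells, at 81.8 to 124 CPM, and these lay above every group outside the distal colon, at 59.6 CPM or less.

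The genes whose pattern over the 15 group means of log2 CPM was most like each member were found among 11180 genes whose highest group mean was at least 10 CPM. All points come from the same 60 libraries, and the correlations are descriptions. Fut9 was nearest to Capn6 (r = 0.987), Sike1 (r = 0.984) and Ror1 (r = 0.981), and Fut4 to Nans (r = 0.988), the sialic acid synthase gene. B4galnt3 was nearest to Trf, the transferrin gene (r = 0.956), with Hoxd13, a posterior homeobox gene, next but one (r = 0.925). B4galnt2 was nearest to Isx, an intestinal homeobox gene (r = 0.953), and Fut8 to Slc35a3, a Golgi transporter of UDP-N-acetylglucosamine (r = 0.945). St6gal1 was nearest to Anxa5 (r = 0.989), B3galt5 to Fam114a1 (r = 0.987), Fut2 to Rapgef3 (r = 0.973), B4galnt1 to Vav2 (r = 0.973) and B3gnt7 to Mill2 (r = 0.962). Among the members themselves, Fut4 and Fut9 were most alike (r = 0.953), and Fut8 and B4galnt1 most opposed (r = -0.911). Fut9 was at or next to 0 CPM in every small intestinal group, so its correlations hold little information on differences among those groups.

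The wider glycan pathway was read from 7 lists holding 125 other genes, of which 119 were tested. In GFP-high cells 61 of the 119 were higher and 21 lower in colon than in small intestine, beside 20.9% and 21.3% of all genes, with a median log2 difference of 0.78, against -0.04 over all genes. The list of sugar nucleotide enzymes and transporters had 10 of 14 higher and 1 lower. In that list Gfpt1, the first enzyme of the hexosamine pathway, averaged 1859 ± 395 CPM in colon (SD, n = 8) and 270 ± 75.4 CPM in small intestine (SD, n = 12), and Uap1, which makes UDP-N-acetylglucosamine, was higher by 1.56 ± 0.08 (SE) on the log2 scale.

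The sialylation list, which leaves out St6gal1, had 11 of 24 higher and 5 lower in colon GFP-high cells. Gne, the first enzyme of sialic acid synthesis, averaged 922 ± 244 CPM in colon and 127 ± 43.4 CPM in small intestine, a log2 difference of 2.90 ± 0.08 (SE; adjusted p = 3.39e-34). Slc35a1, the CMP-sialic acid transporter, had 285 ± 29.8 CPM in colon and 46.3 ± 6.68 CPM in small intestine. The sialyltransferases St3gal1 and St3gal4 were lower in colon, at -1.10 ± 0.16 and -1.01 ± 0.23.

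Of the other lists, fucosylation had 6 of 12 higher and 2 lower, including Slc35c1, the GDP-fucose transporter, higher by 1.02 ± 0.10 (SE). The members' values are not counted in these lists. Chain extension had 10 of 22 higher and 5 lower, with B3gnt5, which starts lacto-series glycolipids, higher by 4.12 ± 0.16, and Gcnt2, the I-branching enzyme, with a log2 difference of -2.94 ± 0.24. O-glycan initiation and core enzymes had 11 of 19 higher and 3 lower, with Gcnt3 at 2.27 ± 0.13 and Gcnt4 at -2.09 ± 0.16. Sulfation had 8 of 15 higher and 3 lower, led by Chst4 at 4.30 ± 0.12, and N-glycan branching 5 of 13 higher and 2 lower. All 7 lists had a larger share higher than the 20.9% of all genes.

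Between distal and proximal colon GFP-high cells, 18 of the 119 were higher and 12 lower, beside 3.74% of all genes higher and 4.05% lower, with a median of 0.06, against 0.00 over all genes. Sialylation had 7 of 24 higher and 3 lower. St6galnac4 averaged 149 ± 22.6 CPM in distal colon and 14.5 ± 8.62 CPM in proximal colon, and St3gal6 291 ± 38.8 CPM in distal and 54.8 ± 10.1 CPM in proximal colon (SD, n = 4 each). St3gal1 went the other way, with 3.30 ± 0.81 CPM in distal and 27.4 ± 12.3 CPM in proximal colon. Chain extension had 5 of 22 higher and 4 lower, with B3gnt5 at 2.42 ± 0.25 and A4gnt, which adds terminal N-acetylglucosamine, at -1.80 ± 0.29 (SE).

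Fucosylation without the members had 0 of 12 higher and 1 lower along the colon, where Fpgt, a GDP-fucose salvage enzyme, had a log2 difference of -0.48 ± 0.16 (SE; edgeR adjusted p = 0.0474). O-glycan core enzymes had 1 of 19 in each direction: Gcnt1 was higher by 2.66 ± 0.47 and Gcnt3 was at -2.22 ± 0.20. Sulfation had 3 of 15 higher and 1 lower, N-glycan branching 1 of 13 each way and sugar nucleotide supply 1 of 14 each way. Set against the shares of all genes, 1 call each way is no result about these lists.

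Along the small intestine, 22 of the 119 genes were higher and 9 lower in distal than in proximal GFP-high cells, beside 6.39% and 5.42% of all genes, with a median of 0.055, against 0.00 over all genes. Between GFP-high and GFP-negative cells, 12 were higher and 68 lower in the distal small intestine, beside 25.7% of all genes higher and 26.2% lower, with a median of -0.78, against -0.005 over all genes. In the distal colon 5 were higher and 40 lower, beside 11.2% and 13.9% of all genes, with a median of -0.44, against -0.03. In the distal small intestine the sialyltransferase St3gal4 averaged 113 CPM in GFP-high cells and 1798 CPM in GFP-negative cells (-3.99 ± 0.39, SE; edgeR adjusted p = 1.51e-12). The marker differences given above between the fractions of the distal small intestine and of the distal colon stand beside these counts too.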

How the data were processed

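PolyA RNA-seq counts per gene were deposited for 60 libraries in 15 groups of 4. Per the submitters' processing notes, the tools were STAR, featureCounts of Subread and edgeR and the build mm10, no version being given. The kit, strandedness and annotation release are not given in the sources used here. Without strand, reads of a gene and of an overlapping antisense gene cannot be told apart.

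From the deposited counts, 23360 of 55357 genes passed filterByExpr, holding at least 99.97% of each library's counts. A model with 1 mean per group was fitted to all 60 libraries with edgeR 4.0.16 (TMM, quasi-likelihood test, R 4.3.3; 45 residual degrees of freedom), with Benjamini-Hochberg adjustment over all genes and calls at an adjusted p below 0.05. Organs are equal-weight means of their parts. CPM use TMM-scaled library sizes, and each SE was derived from the F statistic of its log2 difference. The procedure was run on simulated data with genes changed in 1 group and no effect of the replicate number, a simpler setting than these data. The 10 members and the gene lists were chosen with earlier results of these data known. Named genes of the lists are among the 2 per direction with the smallest p, where the higher mean is 1 CPM or more, and those like a member are its 3 most correlated.

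The deposited batch column equals the replicate number in 60 of 60 libraries, which is where a pairing would come from. Over 8000 genes, deviations of same-numbered libraries correlated at a mean r of 0.168 (420 pairs, 58.8% above 0.1), against -0.052 for different numbers. Alternatives were DESeq2 1.42.0, its size factors, no filter, a newer quasi-likelihood method, the replicate number as a block, a fit to the compared groups alone, each library left out, a further requirement of a 2-fold difference and, added after seeing the data, all libraries numbered 1 left out.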

Additional observations from a re-analysis of the deposited data

Results flagged for a closer look

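In 5 of 141 groups of 4 libraries, 1 library stood far from the other 3, with a gap to the nearest that exceeded Dixon's critical share of the group's whole range. Chance flags about 1 in 20 groups. Fut9 had 2.63 CPM in the proximal colon GFP-negative library numbered 4, and the nearest library had 0.947 CPM. B4galnt2 had 146 CPM in the distal colon GFP-negative library numbered 1, and the nearest had 95.1 CPM. B3gnt7 had 11.9 CPM in the distal small intestinal GFP-high library numbered 4, and the nearest had 7.29 CPM. St6gal1 had 15.2 CPM in the proximal small intestinal GFP-negative library numbered 1, and the nearest had 7.74 CPM. St6gal1 also had 88.7 CPM in the proximal colon GFP-intermediate library numbered 1, and the nearest had 69.4 CPM.

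The difference between GFP-high and GFP-negative cells itself differed between gut parts in 6 tests of an interaction (edgeR, adjusted over all genes). Between colon and small intestine it differed by 2.81 for B3galt5 (adjusted p = 7.23e-07), by 2.81 for B3gnt7 (adjusted p = 1.08e-11), by 1.24 for St6gal1 (adjusted p = 0.000605) and by 1.01 for B4galnt3 (adjusted p = 3.04e-06), on the log2 scale. Between distal and proximal colon it differed by 1.09 for B4galnt3 (adjusted p = 0.0304), and between distal and proximal small intestine by 1.57 for St6gal1 (adjusted p = 0.0475). Each of the last 2 calls was lost on leaving out any 1 of several libraries, as given beside them above.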

How the results depend on the processing

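Of the 136 log2 differences compared, the 98 called ones among them, 133 kept their direction and side of the threshold with DESeq2 size factors, 133 with no filter, 133 with the newer quasi-likelihood method, 130 with the DESeq2 Wald test and 118 with only the groups compared. DESeq2 size factors moved the median of all genes by -0.127 to 0.054. Over all genes, the count called moved by over 1.5 times in 18 of 19 comparisons with the fold in addition (11013 called and 6805 with it, between GFP-high and GFP-negative cells of the proximal small intestine), in 8 with only the groups compared, in 5 without the libraries numbered 1, in 2 with the DESeq2 Wald test and in 1 with no filter. The replicate block changed 2 calls, Fut4 between GFP-high and GFP-negative cells of the distal colon (-0.47) and Fut8 between GFP-high and GFP-intermediate cells of the colon (0.30), and no other. Members called between GFP-high and GFP-negative cells numbered 5 in the proximal small intestine, 3 with a fold of at least 2 in addition, 3 with only the groups compared and 3 to 6 with 1 library left out. All genes called there numbered 11013, 6805 with the fold and 9670 with only the groups compared. In the proximal colon the members called numbered 2, beside 5912 of all genes, and 1 to 2 with 1 library left out. In the distal colon they numbered 4, 2 with the fold and 7 with only the groups compared, beside 5875, 2741 and 4507 of all genes. Along the small intestine the members called numbered 4 in GFP-high cells and 2 with the fold, beside 2759 and 1372 of all genes. In GFP-negative cells they numbered 3, and 1 with only the groups compared, beside 3636 and 1030 of all genes. Between GFP-high and GFP-intermediate cells of the small intestine the members called numbered 4, and 1 with the fold, beside 5575 and 653 of all genes. In the colon they numbered 2, 0 with the fold, 0 without the libraries numbered 1 and 0 to 2 with 1 library left out. All genes called in the colon numbered 2811, 364 with the fold and 71 without the libraries numbered 1. The interaction along the colon called 1 member, 0 without the libraries numbered 1, 0 with only the groups compared and 0 to 2 with 1 library left out. Over all genes it called 144, 71 without the libraries numbered 1 and 48 with only the groups compared. The interaction along the small intestine called 1 member, and 0 with no filter, with the newer method, without the libraries numbered 1 or with only the groups compared. With 1 library left out it called 0 to 1. Over all genes it called 826, 531 with no filter and 820 with the newer method. Without the libraries numbered 1 it called 290 genes, and with only the groups compared 191. No call changed direction. Of uncalled values, B3gnt7 along the small intestine in GFP-intermediate cells was -0.08 without the libraries numbered 1, against 0.25. The B3gnt7 interaction along the colon was -0.36, ranged from -0.575 to 0.18 with 1 library left out and was 0.18 without the proximal colon GFP-high library numbered 4, and that of B4galnt3 along the small intestine was 0.09 without the libraries numbered 1, against -0.33. The causes were not tested. Depth did not allow a fold for Fut9 in the small intestine, where 3 counts per library is the floor.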
